A study of Homo sapiens with 6 samples.

Results

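Cell-cycle exit genes are described here by the open chromatin at and around 10 of them, namely the CDK inhibitors CDKN1A, CDKN1C, CDKN2A and CDKN2B, the D cyclins CCND1, CCND2 and CCND3, and RB1, E2F1 and MYC. ATAC-seq, which marks open DNA by the insertion of adapters with the Tn5 transposase, was performed on cells labelled RH30, a human rhabdomyosarcoma line that carries a PAX3-FOXO1 fusion. The study's results text names RH30-SR cells, which also express a repressor of NF-κB, for this assay, and the labels do not mention the repressor, so whether both groups carried it is not settled here. The comparison was between 3 vector libraries, from cells given Cas9 and non-targeting scramble guides, and 3 MyoD-deleted libraries, from cells given Cas9 and guides to MyoD. All cells were cultured in RPMI with fetal bovine serum, and neither group received a further treatment according to the labels. Peaks that overlapped between libraries were joined, which gave 105569 regions, and a region was taken as a member when its top summit lay in the body of one of the genes or within 50 kb of it (GENCODE, GRCh38). There were 96 such regions. The windows of CDKN2A and CDKN2B share 7 of them. Whether the edited cells were a pool or a clone is not stated for these libraries in the sources used here. The labels call the libraries biological replicates without saying whether cultures were edited separately, so p-values measure the spread between these libraries. In such bulk libraries, more cells with an open site and a more open site per cell cannot be told apart.

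Muscle precursors leave the cell cycle for good when they differentiate. The D cyclins bind CDK4 and CDK6, and these kinases phosphorylate the retinoblastoma protein RB, which then releases E2F factors to drive genes of DNA replication. CDK inhibitors block the kinases, MYC promotes growth and division, and MyoD, which binds E boxes as a dimer with E proteins, is known for inducing CDKN1A and RB1 as myoblasts stop dividing. Rhabdomyosarcoma cells express MyoD yet keep dividing.

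Each region was described by 2 measures. The height is the log2 number of fragments stacked at the summit over the smallest background of that library, centred so that 0 is the median region of the library among the 47885 regions called in all 6. The rank is the percentile of the fold enrichment, the stack over its local background, among the same regions of the library. Differences are MyoD-deleted minus vector, with the standard error (SE) and the Benjamini-Hochberg adjusted p of limma over all 47885 regions. A region called in all libraries of one group and in 0 of the other is gained or lost. It has no value in the libraries without a peak, and therefore no fold and no test.

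In the targeted gene itself, the region over MYOD1 was called in all 6 libraries, with heights of 2.75, 2.84 and 2.94 in vector and 2.14, 2.50 and 2.43 in MyoD-deleted libraries. The groups did not overlap, and the difference was −0.49 (SE 0.10, adjusted p = 0.00210), but it could not be called without centring (−0.29, adjusted p = 0.0932), and a small deletion leaves most of the region in place. The muscle markers MYOD1, MYOG, DES, CHRNA1 and FGFR4 had an open 5′ end in 3 of 3 libraries of each group and MYH3 had none. PTPRC, PECAM1 and ALB, of other lineages, had none, whereas EPCAM had one in 2 vector and 3 MyoD-deleted libraries and CD79A in 2 vector and 0 MyoD-deleted libraries. Vector libraries held 63140 to 74121 peaks and MyoD-deleted libraries 73745 to 80608. Read totals cannot be had from peak lists, and the depth is therefore unknown. The smallest background per library, which follows depth, was 2.22 to 3.41 fragments in vector and 2.27 to 2.35 in MyoD-deleted libraries. Before centring, the median region was 0.19 higher in MyoD-deleted libraries on the log2 scale, and the differences below are relative to it.

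The promoters of 9 of the 10 genes were open in both groups. With the exceptions of CCND2 and an inner CCND3 promoter, no change in height was detected at them. The other regions called by height were distal ones of CCND3, CCND2 and CDKN1C. Gained regions lay in the windows of CDKN1A and RB1, and the lost region in that of CCND1. Of the 96 regions, 45 were called in all 6 libraries (46.9%, compared with 45.4% of all regions). By height, 4 of the 45 were higher (8.89%, background 11.4%) and 6 were lower (13.3%, background 12.8%). By rank, 2 were higher (4.44%, background 4.12%) and 2 lower (4.44%, background 4.67%). There were 3 gained regions (3.12% of 96, background 4.56% of all regions) and 1 lost region (1.04%, background 1.78%). As a group, the members were therefore called about as often as any regions, and what they show lies in single loci. The median difference in height was 0.03 for the members and 0.04 for all regions. Without centring, 9 of the 45 were higher and 4 lower, beside backgrounds of 24.7% and 8.03%.

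Regions called in some libraries only made up the rest. Of these 47 member regions, 36 (76.6%) were called in more MyoD-deleted than vector libraries and 9 (19.1%) in more vector libraries. Over all 50985 such regions these shares were 60.3% and 29.95%, in the same direction as the larger number of peaks in MyoD-deleted libraries. Of the 47, 18 rested on a single library (38.3%, compared with 39.9% of all such regions).

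**Figure D1:**
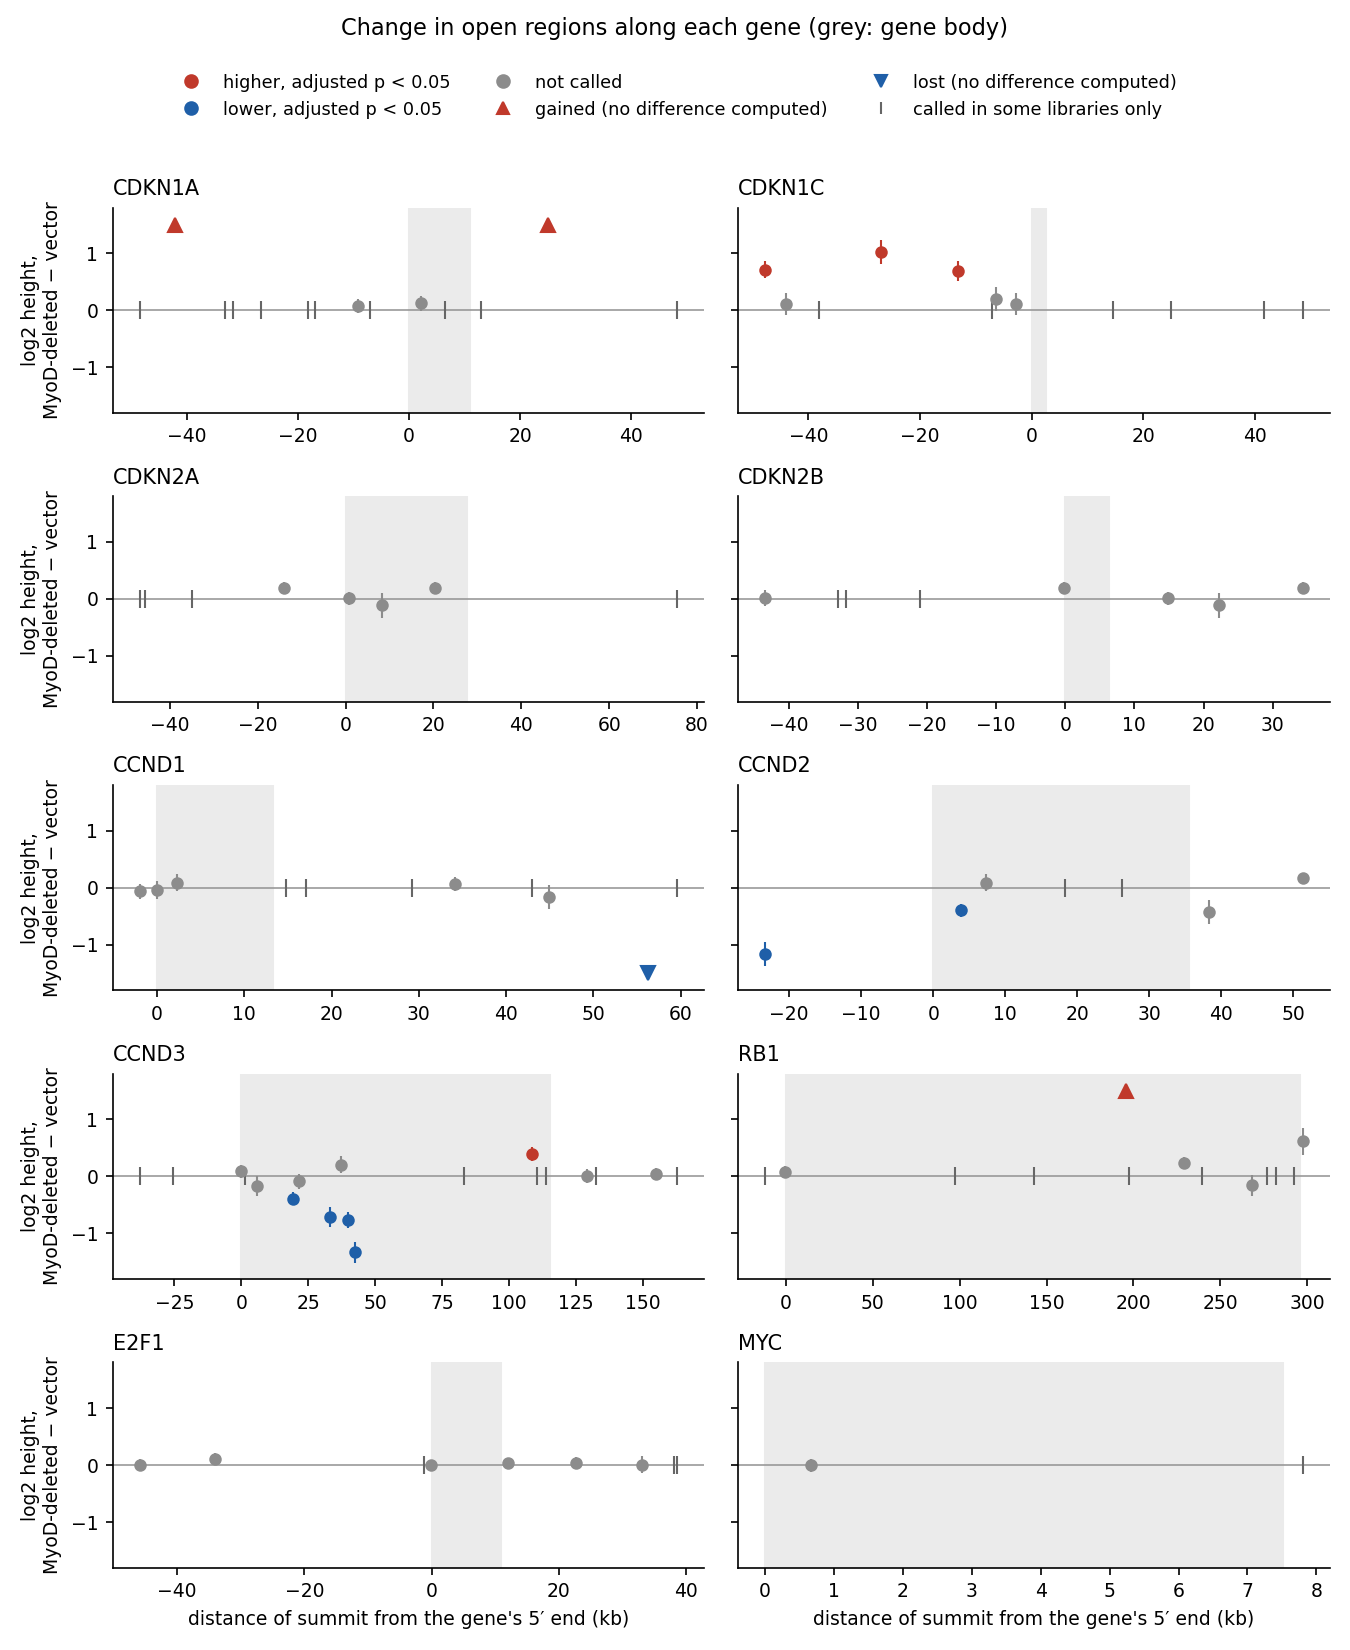
Difference in centred log2 height (y axis, MyoD-deleted minus vector, bars are standard errors) against the distance of the summit from the outermost 5′ end of the gene in kb (x axis, positive into the gene, gene body in grey), 1 panel per gene. The 4 blue points of CCND3 lie 19.5 to 42.4 kb inside the gene, the 3 red points of CDKN1C lie 13.1 to 47.8 kb upstream of it, and the points at the 5′ ends are mostly close to 0. Triangles mark gained and lost regions, placed at the edge since they have no difference, and ticks mark regions called in some libraries only.

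The sequence at the summit was read for the regions that changed. The E box CAGCTG, the core that MyoD dimers prefer, was found near the summit, at most 100 bp away, for 6 of the 7 regions lost or lower by height, all but the one 19.5 kb inside CCND3. Over all 8032 regions lost or lower by height the share was 56.6%. All 7 regions, with and without this E box, lie in the windows of D cyclins. These windows hold 11 (CCND1), 7 (CCND2) and 19 (CCND3) of the 96 member regions. The lost region is nearest to FGF19, 6.58 kb from its start. The sequences of 5 of the 6 regions that hold this E box are printed to show where it lies. Each is 201 bases on the plus strand of GRCh38 centred on the summit, with CAGCTG in capitals.
CCND3 region 42.4 kb inside the gene, chr6:42007867-42008067: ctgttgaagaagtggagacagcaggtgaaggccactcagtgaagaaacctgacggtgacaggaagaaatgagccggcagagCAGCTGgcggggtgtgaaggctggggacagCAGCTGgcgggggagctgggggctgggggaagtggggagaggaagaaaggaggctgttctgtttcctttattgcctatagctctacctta
CCND3 region 39.8 kb inside the gene, chr6:42010460-42010660: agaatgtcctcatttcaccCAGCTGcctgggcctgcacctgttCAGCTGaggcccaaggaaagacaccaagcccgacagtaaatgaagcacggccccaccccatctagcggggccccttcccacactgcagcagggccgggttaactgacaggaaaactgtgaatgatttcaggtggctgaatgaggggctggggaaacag
CCND3 region 33.1 kb inside the gene, chr6:42017184-42017384: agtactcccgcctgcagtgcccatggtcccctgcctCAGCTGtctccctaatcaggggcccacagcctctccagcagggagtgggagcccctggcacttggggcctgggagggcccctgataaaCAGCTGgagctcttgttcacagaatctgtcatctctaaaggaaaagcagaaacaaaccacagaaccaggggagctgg
CCND2 region 23.4 kb upstream, chr12:4246299-4246499: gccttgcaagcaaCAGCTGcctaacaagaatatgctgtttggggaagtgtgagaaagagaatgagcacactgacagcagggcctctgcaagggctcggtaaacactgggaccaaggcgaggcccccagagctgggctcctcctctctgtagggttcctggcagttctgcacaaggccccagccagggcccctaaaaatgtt
CCND1 lost region, chr11:69697347-69697547: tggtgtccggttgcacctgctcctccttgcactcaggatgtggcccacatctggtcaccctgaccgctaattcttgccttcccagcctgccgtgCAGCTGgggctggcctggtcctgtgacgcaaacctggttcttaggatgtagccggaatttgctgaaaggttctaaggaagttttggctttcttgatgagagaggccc

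The 3 CCND3 sequences each hold 2 copies. The copy nearest to the summit lay at 13.5, 54.5 and 26.5 bp in the order printed, measured from the middle of the E box. In the lost CCND1 region it lay 3.5 bp from the summit, but 84.5 bp away in the upstream CCND2 region.

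Other motifs were read in the regions gained or higher by height. An AP-1 site (TGACTCA or TGAGTCA, both strands) lay near the summit in 3 of the 7 regions gained or higher by height, namely in 2 of CDKN1C and in the gained region of RB1, and a TEAD site (GGAATG, both strands) in 2 others. Over all 10254 regions gained or higher by height the shares were 30.4% for AP-1 and 24.4% for TEAD. CAGCTG lay in 2 of the same 7, compared with 14.6% of all such regions. A second CCND3 region with TEAD sites was higher by rank only. These sequences are printed in the same way, with the AP-1 or TEAD site in capitals, CATTCC being GGAATG on the other strand.
CDKN1C region 13.1 kb upstream, AP-1, chr11:2898802-2899002: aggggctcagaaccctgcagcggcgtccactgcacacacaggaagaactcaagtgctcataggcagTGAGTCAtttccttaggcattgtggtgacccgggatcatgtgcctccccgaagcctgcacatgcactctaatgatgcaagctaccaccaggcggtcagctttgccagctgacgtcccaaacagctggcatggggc
CDKN1C region 27.0 kb upstream, AP-1, chr11:2912723-2912923: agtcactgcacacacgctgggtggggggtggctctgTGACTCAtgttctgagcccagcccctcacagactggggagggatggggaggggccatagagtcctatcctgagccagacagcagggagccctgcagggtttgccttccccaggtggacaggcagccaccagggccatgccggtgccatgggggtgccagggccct
RB1 gained region, AP-1, chr13:48499204-48499404: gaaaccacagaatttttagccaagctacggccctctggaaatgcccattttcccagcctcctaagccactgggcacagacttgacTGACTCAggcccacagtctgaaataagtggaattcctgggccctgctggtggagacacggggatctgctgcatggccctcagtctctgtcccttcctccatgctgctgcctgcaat
CDKN1A gained region, TEAD, chr6:36701436-36701636: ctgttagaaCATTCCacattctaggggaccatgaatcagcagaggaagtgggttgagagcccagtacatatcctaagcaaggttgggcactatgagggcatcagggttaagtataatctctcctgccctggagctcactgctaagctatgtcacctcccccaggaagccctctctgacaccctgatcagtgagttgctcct
CCND3 inner promoter, TEAD, chr6:41941735-41941935: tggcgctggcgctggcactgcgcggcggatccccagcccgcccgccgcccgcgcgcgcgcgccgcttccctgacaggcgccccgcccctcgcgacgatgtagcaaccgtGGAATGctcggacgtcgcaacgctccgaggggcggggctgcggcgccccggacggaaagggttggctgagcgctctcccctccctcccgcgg
CCND3 region 37.3 kb inside the gene, TEAD, chr6:42012918-42013118: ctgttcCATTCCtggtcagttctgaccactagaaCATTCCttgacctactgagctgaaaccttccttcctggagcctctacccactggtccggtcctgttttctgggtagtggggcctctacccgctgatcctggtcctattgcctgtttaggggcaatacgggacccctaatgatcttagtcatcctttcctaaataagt

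Over all 96 members, CAGCTG lay in 24 (25.0%), which is the share of all regions (25.1%). AP-1 sites lay in 17 members (17.7%, compared with 17.9% of all regions) and TEAD sites in 12 (12.5%, compared with 17.3%). CAGCTG was not limited to losses. Of the 14 tested members that held it, 5 were lower by height (35.7%) and 2, both at CDKN1C, were higher, among them the region 13.1 kb upstream with 2 copies that stand in lower case above. Of the 31 without it, 1 was lower (3.23%). Over all tested regions, 26.4% of those with and 7.63% of those without this E box were lower. A motif is a match of letters and no evidence of binding.

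**Figure D2:**
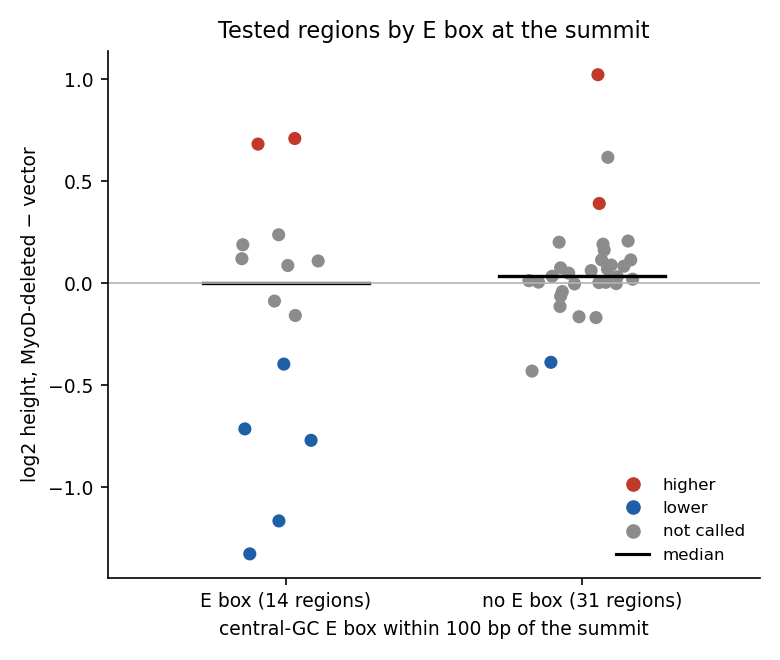
Difference in centred log2 height (y axis, MyoD-deleted minus vector) of the 45 member regions called in all 6 libraries, split by whether CAGCTG lies within 100 bp of the summit (x axis, points spread sideways for clarity). Of the 6 lower regions in blue, 5 are among the 14 with the E box, as are 2 of the 4 higher regions in red, and the medians, drawn as black lines, are 0.00 and 0.03.

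The promoters were compared first. A region within 2 kb of an annotated 5′ end was called in all 6 libraries at 9 of the 10 genes, 14 regions in all, and CDKN1C had none. In vector libraries E2F1 was the highest at 2.84 ± 0.06 (SD, n = 3), followed by CCND2 at 2.19 ± 0.22 and CDKN2B at 2.08 ± 0.09, which overlapped each other. CDKN1A, RB1, CDKN2A and the outer CCND3 promoter followed between 1.46 and 1.52, less far apart than their SD. MYC stood at 1.06 ± 0.06, and the 5′ end of CCND1 at 0.42 ± 0.05 was the lowest canonical promoter. Heights depend on how many fragments a site collects and are not a measure of transcription.

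Between the groups, 12 of the 14 promoter regions were not called by height, with differences from −0.06 to 0.19 and a smallest adjusted p of 0.206. Their 95% intervals together ran from −0.36 to 0.41, or 0.782 to 1.33 on the fold scale. The CCND2 promoter was called lower and the inner CCND3 promoter higher. Over all tested regions, 12.8% were lower and 11.4% higher, and no test set the 14 promoter regions against these shares.

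**Figure D3:**
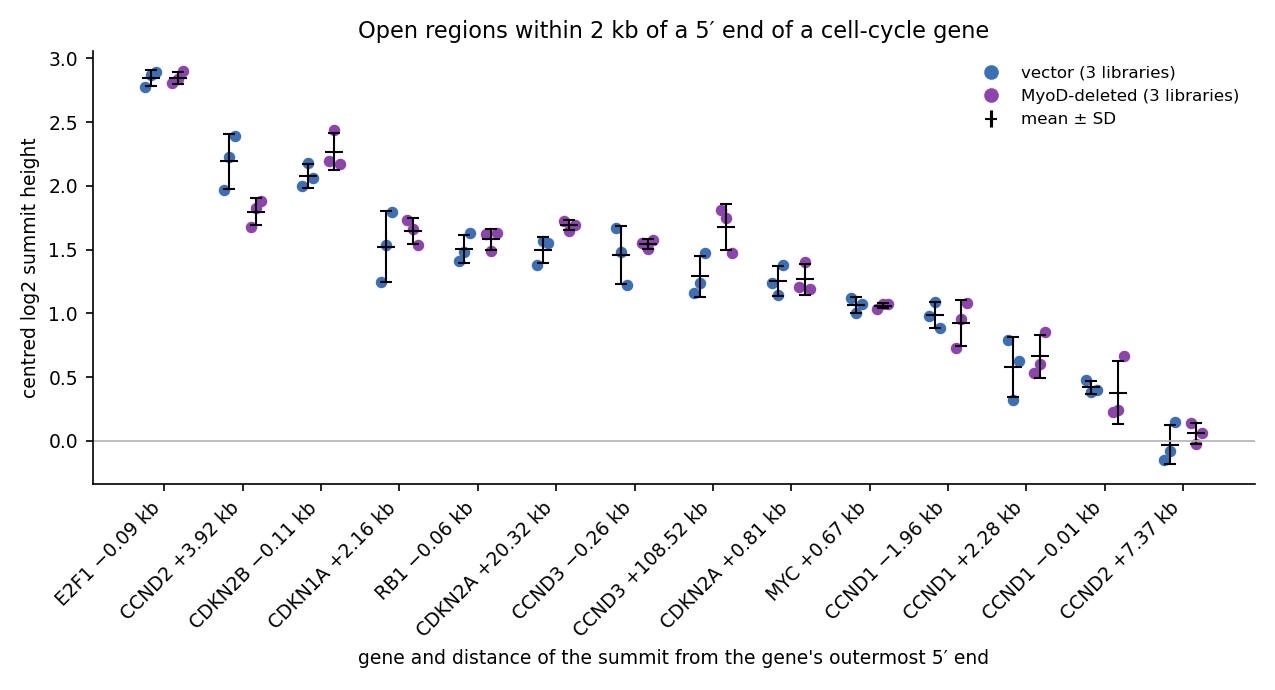
Centred log2 summit height (y axis) of the 14 promoter regions called in all 6 libraries, ordered by their vector mean and named by gene and by the distance of the summit from the outermost 5′ end of the gene (x axis). Points are libraries and black marks are mean ± SD (n = 3). Called by height were the CCND2 promoter, second from the left, where all 3 MyoD-deleted libraries are lower, and the inner CCND3 promoter, eighth from the left, where they are higher or equal at 1.47.

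CDKN1A (ENSG00000124762.14, chromosome 6, 36676460 to 36687337, plus strand) encodes p21, which inhibits cyclin-dependent kinases and is induced by MyoD. Its promoter region, at 36678329 to 36680777 with a summit 97 bp upstream of the canonical 5′ end, had heights of 1.25, 1.53 and 1.79 in vector and 1.73, 1.66 and 1.53 in MyoD-deleted libraries. The groups overlapped, and the difference of 0.12 (SE 0.13, adjusted p = 0.557) was within the spread of the vector libraries. This promoter holds CAGCTG within 100 bp of its summit. The region of highest rank at the gene, 9.18 kb upstream at 36666724 to 36667844, had heights of 0.95, 1.03 and 0.81 in vector and 0.86, 1.14 and 1.01 in MyoD-deleted libraries. It ranked at 74.1 ± 7.91 and 86.3 ± 7.05 percentiles (SD, n = 3), and neither rank (adjusted p = 0.153) nor height (adjusted p = 0.744) was called.

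Around CDKN1A, 10 of the 14 regions were called in some libraries only, 7 of them in more MyoD-deleted and 3 in more vector libraries, and a further 2 were gained. The gained region at 36633898 to 36634606, 42.2 kb upstream and intergenic, had heights of −1.86, −1.34 and −1.44 in the 3 MyoD-deleted libraries, from 16, 26 and 25 fragments at the summit. The gained region at 36701260 to 36701810, 25.1 kb downstream of the outermost 5′ end in intron 1 of RAB44, had −1.69, −1.72 and −2.09, from 18, 20 and 16 fragments. Both are weak peaks, well under the height of the promoter.

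CDKN1C (ENSG00000129757.15, chromosome 11, 2883213 to 2885775, minus strand) encodes p57, an inhibitor of the same family that is active in muscle differentiation, and lies in an imprinted cluster with KCNQ1, SLC22A18 and PHLDA2. It was the gene with most regions called higher by height, 3 of its 6 regions called in all libraries, beside 11.4% of all tested regions. All 6 differences were above 0 after centring, as were those of 26223 of all 47885 tested regions. The largest was at 2912466 to 2913581, 27.0 kb upstream of the gene in intron 5 of SLC22A18. Its heights were −0.67, −1.05 and −0.65 in vector and 0.16, 0.68 and −0.16 in MyoD-deleted libraries, from 51, 27 and 42 against 65, 106 and 61 fragments. Every MyoD-deleted library stood above every vector library, and the difference was 1.02 (SE 0.21, adjusted p = 0.00145), a 2.03-fold higher summit.

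At 2932924 to 2933990, 47.8 kb upstream of CDKN1C and 4.11 kb from the start of PHLDA2, heights were 0.91, 0.82 and 1.39 in vector and 1.61, 2.02 and 1.62 in MyoD-deleted libraries. The groups again did not overlap (difference 0.71, SE 0.15, adjusted p = 0.00181). At 2898485 to 2899346, 13.1 kb upstream in intron 1 of the antisense gene SLC22A18AS, heights were −0.41, −0.81 and −0.55 in vector and 0.05, 0.31 and −0.09 in MyoD-deleted libraries. This difference of 0.68 (SE 0.18, adjusted p = 0.00864) was not called without vector replicate 2 (adjusted p = 0.0503) or without MyoD-deleted replicate 2 (adjusted p = 0.0562). It lies 819 bp from the start of SLC22A18, and which gene these regions serve was not tested.

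By rank, none of the 3 was called. Their percentiles rose by 14.0, 19.2 and 19.5 points from the 13.1 kb to the 47.8 kb region, with adjusted p of 0.290, 0.136 and 0.102, and the region of highest rank at the gene, 13.1 kb upstream, went from 41.3 ± 4.13 to 55.3 ± 13.6 percentiles (SD, n = 3). The region nearest to the gene, 2.82 kb upstream at 2888271 to 2888843, had heights of −0.75, −1.16 and −1.04 in vector and −0.90, −0.92 and −0.80 in MyoD-deleted libraries. These overlapped, with a difference of 0.11 (SE 0.20, adjusted p = 0.733).

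CDKN2A (ENSG00000147889.18, chromosome 9, 21967752 to 21995301, minus strand) encodes p16, an inhibitor of CDK4 and CDK6, and from another 5′ end the protein ARF. It lies next to CDKN2B (ENSG00000147883.12, 22002903 to 22009305, minus strand), which encodes the related inhibitor p15. The locus is often deleted in tumors, and here its start sites were open in all 6 libraries. The canonical p16 promoter at 21974457 to 21975705 had heights of 1.38, 1.57 and 1.55 in vector and 1.73, 1.65 and 1.69 in MyoD-deleted libraries. The groups did not overlap, but the difference of 0.19 (SE 0.10, adjusted p = 0.207) was not called. It was also the region of highest rank at either gene, at 89.3 ± 6.16 and 88.6 ± 2.85 percentiles (SD, n = 3).

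At the outer 5′ end of CDKN2A, at 21993615 to 21996009, heights were 1.24, 1.15 and 1.38 in vector and 1.21, 1.41 and 1.19 in MyoD-deleted libraries (difference 0.01, SE 0.12, adjusted p = 0.958). The CDKN2B promoter at 22008684 to 22009734 had 2.00, 2.18 and 2.06 in vector and 2.19, 2.44 and 2.17 in MyoD-deleted libraries, with 1 MyoD-deleted library just under the highest vector library (difference 0.19, SE 0.10, adjusted p = 0.206). Without centring, the p16 and CDKN2B promoters passed the threshold, at 0.38 each (adjusted p = 0.0273 and 0.0280). No region of the 2 genes was gained, lost or called by rank.

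CCND1 (ENSG00000110092.4, chromosome 11, 69641156 to 69654474, plus strand), cyclin D1, binds CDK4 and CDK6 in response to growth signals. At its 5′ end, 69640856 to 69641542, heights were 0.48, 0.38 and 0.40 in vector and 0.23, 0.24 and 0.67 in MyoD-deleted libraries, with MyoD-deleted libraries on both sides of the vector libraries. The difference was −0.04 (SE 0.15, adjusted p = 0.882). The flanking promoter regions, with summits 1.96 kb upstream of the 5′ end and 2.28 kb downstream of it in intron 2, differed by −0.06 (SE 0.13, adjusted p = 0.776) and 0.08 (SE 0.15, adjusted p = 0.743). The region of highest rank in the window was at the start of the neighbor LTO1, 34.2 kb downstream, at 87.5 ± 2.03 and 86.2 ± 5.84 percentiles (SD, n = 3).

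The single lost region of the 10 genes lay 56.3 kb downstream of the CCND1 start and 6.58 kb from FGF19, at 69696900 to 69697663. Its heights in the 3 vector libraries were −1.30, −1.22 and −1.65, from 33, 24 and 21 fragments, so it was a weak peak there, and the MyoD-deleted libraries list no peak at it. This is the region with an E box at 3.5 bp from the summit.

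CCND2 (ENSG00000118971.9, chromosome 12, 4269771 to 4305353, plus strand), cyclin D2, changed at its promoter and upstream of it. The distal region at 4245863 to 4246726, intergenic and 23.4 kb upstream of the outermost 5′ end, had heights of −0.27, 0.03 and −0.04 in vector and −1.40, −1.58 and −0.80 in MyoD-deleted libraries. These came from 67, 57 and 64 against 22, 22 and 39 fragments, and every MyoD-deleted library was below every vector library. The difference was −1.16 (SE 0.21, adjusted p = 0.000642), or 0.446 of the vector height. Its rank went from 51.1 ± 2.35 to 33.6 ± 15.3 percentiles (SD, n = 3, adjusted p = 0.201), with MyoD-deleted replicate 3 at 51.2.

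The CCND2 promoter region, at 4271713 to 4274177 with a summit 69 bp upstream of the canonical 5′ end in intron 1 of CCND2-AS1, had heights of 1.96, 2.23 and 2.39 in vector and 1.68, 1.83 and 1.88 in MyoD-deleted libraries. The groups did not overlap, and the difference was −0.40 (SE 0.11, adjusted p = 0.0161). The call did not hold without vector replicate 2 (adjusted p = 0.0769), vector replicate 3 (0.0922) or MyoD-deleted replicate 1 (0.0904), or without centring (−0.20, adjusted p = 0.254). By rank it was at 50.9 ± 6.81 and 42.1 ± 4.18 percentiles (SD, n = 3, adjusted p = 0.442). Another region, in intron 2 at 4276794 to 4277235, was called higher by rank only, from 0.07 ± 0.01 to 0.85 ± 0.27 percentiles (SD, n = 3, adjusted p = 0.0207), all of them at the bottom of the ranks. Its heights overlapped, at −0.15, −0.08 and 0.15 in vector and 0.14, −0.02 and 0.06 in MyoD-deleted libraries, and the rank was not called without vector replicate 2 or 3 or MyoD-deleted replicate 1 or 2 (adjusted p of 0.0877, 0.0733, 0.0667 and 0.0506).

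The region of highest rank at CCND2, 51.3 kb downstream of the outermost 5′ end at 4320465 to 4321642, was also among the highest of all members by height, at 2.76, 2.97 and 3.17 in vector and 3.02, 3.15 and 3.21 in MyoD-deleted libraries. It lies beyond the end of the gene, the nearest gene start is that of TIGAR, 13.3 kb away, and which gene it serves was not tested. The groups overlapped, and the difference of 0.16 (adjusted p = 0.282) had the opposite sign to those at the promoter and upstream. It passed the threshold without centring (0.35, adjusted p = 0.0415).

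CCND3 (ENSG00000112576.13, chromosome 6, 41934934 to 42050357, minus strand), cyclin D3, is the D cyclin that accumulates when myoblasts differentiate and is induced by MyoD. It held the largest fall by height of the 10 genes. Of its 19 regions, 11 were called in all 6 libraries. By height, 4 of the 11 were lower (background 12.8%) and 1 was higher (background 11.4%). The 4 lower regions lie in the long stretch between the outermost 5′ end and the canonical one, which long CCND3 transcripts span, and 66.2 to 89.1 kb upstream of the canonical 5′ end. The largest fall was at 42007407 to 42008320, with heights of 0.14, 0.30 and −0.04 in vector and −1.05, −1.40 and −1.13 in MyoD-deleted libraries.

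That region had 89, 69 and 64 fragments at the summit in vector and 28, 25 and 31 in MyoD-deleted libraries, and the groups lay far apart. The difference was −1.33 (SE 0.18, adjusted p = 5.35e-05), or 0.399 of the vector height. It was lower by rank as well, from 7.83 ± 3.09 to 0.704 ± 0.18 percentiles (SD, n = 3, adjusted p = 0.0146), a call that was not kept without vector replicate 2 (adjusted p = 0.0502) or MyoD-deleted replicate 2 (0.0576). The local background there, by which fold enrichment is divided, was 13.8 to 19.3 fragments in vector and 7.97 to 9.94 in MyoD-deleted libraries.

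Its neighbor at 42010097 to 42011023 had heights of 1.19, 1.20 and 1.11 in vector and 0.68, 0.24 and 0.27 in MyoD-deleted libraries, without overlap (difference −0.77, SE 0.14, adjusted p = 0.000525). It was not called by rank, at 36.4 ± 2.18 and 22.0 ± 10.2 percentiles (SD, n = 3, adjusted p = 0.201). At 42017005 to 42017665, heights were 0.18, 0.58 and 0.60 in vector and −0.33, −0.46 and 0.02 in MyoD-deleted libraries, again without overlap (difference −0.71, SE 0.17, adjusted p = 0.00523). Its rank fell by more percentile points than that of any other tested member, though on the inverse-normal scale of the test the region at 42007407 fell further (−1.02 compared with −0.89). It went from 48.4 ± 10.6 to 17.7 ± 4.28 percentiles (SD, n = 3, adjusted p = 0.0237), which was not called without vector replicate 2 or 3 or MyoD-deleted replicate 1 or 2 (adjusted p of 0.0866, 0.0782, 0.0643 and 0.0876).

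These 3 regions, each with 2 E boxes, kept their calls by height when any of the 6 libraries was left out and without centring. The fourth lower region, at 42030405 to 42031456 and without this E box, had heights of 2.04, 2.52 and 2.34 in vector and 1.93, 1.88 and 1.93 in MyoD-deleted libraries. Its difference of −0.39 (SE 0.11, adjusted p = 0.0179) was not called when any library other than vector replicate 1 was left out (adjusted p from 0.0566 to 0.157), nor without centring (−0.20, adjusted p = 0.269). The CCND2 promoter, which holds 1 CAGCTG 95.5 bp from its summit, also lost its call in some of these settings.

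The changes within the gene were not uniform. The region at 42012664 to 42013427, between the second and the third of the lower ones, had heights of 0.09, 0.05 and −0.09 in vector and 0.05, 0.30 and 0.32 in MyoD-deleted libraries, which overlapped (difference 0.21, SE 0.15, adjusted p = 0.364). Its rank rose from 2.11 ± 1.06 to 11.2 ± 4.02 percentiles (SD, n = 3, adjusted p = 0.0368), and the call was not kept when any library other than vector replicate 1 was left out (adjusted p from 0.0537 to 0.127). Its local background fell from between 17.0 and 23.3 fragments to between 12.6 and 14.7.

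At the inner, canonical CCND3 promoter, 41940929 to 41942286, heights were 1.16, 1.24 and 1.47 in vector and 1.81, 1.75 and 1.47 in MyoD-deleted libraries. The groups met at 1.47, and the difference was 0.39 (SE 0.12, adjusted p = 0.0253), which was not called without vector replicate 2 (adjusted p = 0.105), MyoD-deleted replicate 1 (0.135) or MyoD-deleted replicate 2 (0.0956). The outer promoter at 42050243 to 42051007, where the neighbor TAF8 also starts, was the region of highest rank, at 95.0 ± 4.14 and 94.9 ± 0.519 percentiles (SD, n = 3), with heights of 1.67, 1.48 and 1.22 in vector and 1.55, 1.50 and 1.58 in MyoD-deleted libraries (difference 0.09, SE 0.12, adjusted p = 0.660).

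**Figure D4:**
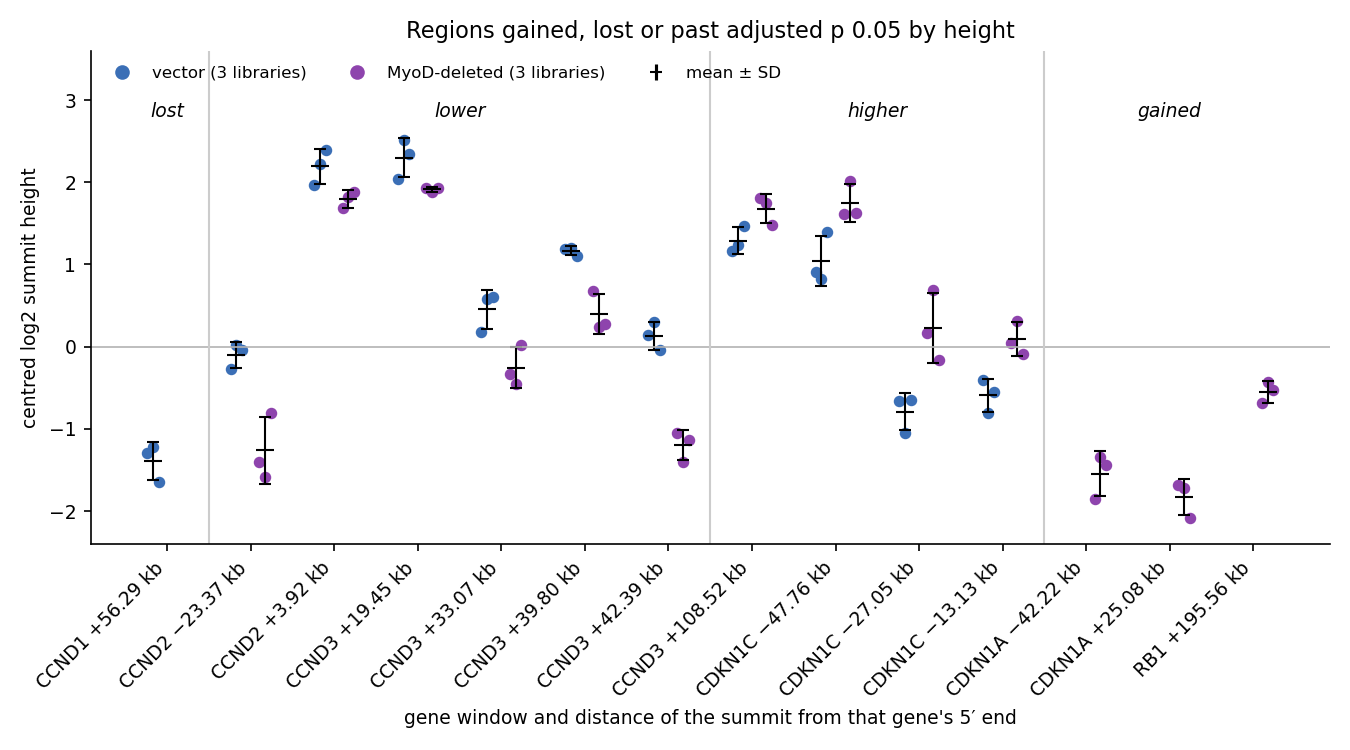
Centred log2 summit height (y axis) in each library of the 14 member regions that were lost, lower, higher or gained, named by gene and distance of the summit from the outermost 5′ end of the gene (x axis). Points are libraries and black marks are mean ± SD (n = 3), and lost and gained regions have values in 1 group only. The widest gap between the groups is that of the CCND3 region 42.4 kb inside the gene. Its vector libraries run from −0.04 to 0.30 and its MyoD-deleted libraries from −1.40 to −1.05.

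RB1 (ENSG00000139687.16, chromosome 13, 48303744 to 48599436, plus strand) encodes RB itself. Its promoter at 48303128 to 48304578 had heights of 1.41, 1.48 and 1.63 in vector and 1.63, 1.49 and 1.63 in MyoD-deleted libraries, which overlapped (difference 0.08, SE 0.11, adjusted p = 0.674). The gained region at 48498983 to 48499548, inside the RB1 span 196 kb from its start and in intron 13 of RCBTB2, had heights of −0.69, −0.43 and −0.53 in MyoD-deleted libraries, from 36, 49 and 47 fragments. It was the highest of the 3 gained members. The region of highest rank, 320 bp from the start of RCBTB2 at 48532460 to 48533379, stood at 98.0 ± 1.34 and 99.2 ± 0.453 percentiles (SD, n = 3) and was not called by either measure (height difference 0.24, adjusted p = 0.0945), but it passed the threshold for height without centring (0.43, adjusted p = 0.0127). So did the RB1 region at 48600325 to 48601594 (0.81, adjusted p = 0.003475), which was at 0.62 (SE 0.23, adjusted p = 0.0645) with centring.

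E2F1 (ENSG00000101412.13, chromosome 20, 33675477 to 33686385, minus strand) encodes a factor that RB holds in check. Its promoter region at 33685251 to 33686933 was the highest of the 10 genes, at 2.78, 2.87 and 2.89 in vector and 2.81, 2.84 and 2.90 in MyoD-deleted libraries. The groups were interleaved, the difference was 0.00 (SE 0.09, adjusted p = 0.986), and the 95% interval from −0.18 to 0.18 was the narrowest of the promoters. All 6 tested regions of the gene differed by 0.00 to 0.11, and none was called. The region of highest rank was 33719752 to 33720843 at the start of PXMP4, at 94.6 ± 1.93 and 95.7 ± 0.541 percentiles (SD, n = 3).

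MYC (ENSG00000136997.22, chromosome 8, plus strand) had 2 regions, the fewest of the 10. Its promoter region had heights of 1.12, 1.00 and 1.07 in vector and 1.04, 1.07 and 1.07 in MyoD-deleted libraries, which overlapped with a difference of 0.00 (SE 0.11, adjusted p = 0.989). It ranked at 27.9 ± 1.06 and 22.5 ± 0.553 percentiles (SD, n = 3, adjusted p = 0.571). The other region, 7.80 kb from the start, was called in 1 vector and 3 MyoD-deleted libraries.

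An E2F site (TTTCCCGC, TTTGGCGC, TTTCGCGC or TTTGCCGC, both strands) was found near the summit, in the same window, at 3 of the 96 members, the promoters of RB1, E2F1 and MYC, compared with 0.897% of all regions and 1.40% of those called in all 6 libraries. At none of these 3 promoters was a change in height detected.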

How the data were processed

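ATAC-seq was measured in 6 libraries of cells labelled RH30, and groups were taken from the labels. The authors mapped the reads to hg38 with Rsubread, called peaks per library with MACS2 and deposited unpooled peak lists. Fold enrichment, as deposited, is a ratio of summit pileup to local background with no scaling across libraries. Each summit also has a −log10 p and a −log10 q from the authors' peak caller, and the deposited score is a multiple of −log10 q cut to a whole number. Per the submitters' processing notes, bcl2fastq 2.20 and FastQC were also used. Whether the authors' exclusion list was applied before the lists were written is not given in the sources used here.

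Whole-number pileups and backgrounds were recovered from fold enrichment and −log10 p for 100% of peaks (relative tolerance 0.0001). Each library's 1 peak on the mitochondrial genome was not used. The 47885 regions with a peak in every library were tested on 2 scales, inverse-normal ranks of the highest fold enrichment within a library and centred log2 height, with limma 3.58.1 (lmFit, eBayes with a trend, no block) in R 4.3.3. Every p in the text is the two-sided Benjamini-Hochberg value of that limma fit over 47885 regions, and the threshold was 0.05. Percentile differences describe the ranks, while the test used inverse-normal scores. Steps were tested on simulated data.

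Genes were from GENCODE version 44 with sequences read from GRCh38 in coordinates that start at 1, and motifs were searched on both strands within 100 bp of the top summit. The regions named are promoters (within 2 kb of an annotated 5′ end), regions gained, lost or called, and the region of highest mean rank at each gene. Sequences are shown for lost or lower regions with CAGCTG and for gained or higher regions with AP-1 or TEAD. The sequence of 1 such region and the counts of 1 group of pathway genes are not reported here. Members, lists and tests were chosen with earlier results of these data known. Alternatives were lists cut to equal numbers of peaks or to a −log10 q of 5 or more, windows of 100 bp as regions, regions in at least 2 libraries of each group, ranks of −log10 p, other summit heights, a peak over 50% of the region, 10 kb and 100 kb from the gene, a replicate block and each library left out. Python 3.11.15, numpy 2.4.6, pandas 2.3.3, pysam 0.24.0 and matplotlib 3.10.9 were used.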

Additional observations from a re-analysis of the deposited data

How the results depend on the processing

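By height, the 6 lower regions stayed between 4 and 7 under the alternatives run. The 4 higher became 1 within 10 kb, 8 within 100 kb, 7 with regions in at least 2 libraries of each group, and 9 without centring (4 lower then). By rank, where 2 were higher and 2 lower, a −log10 q of at least 5 left 1 and 1, windows of 100 bp 1 and 1, and equal numbers of peaks 2 and 1, while ranks of −log10 p gave 4 and 6. The 3 gained regions became 5 at that −log10 q, 1 within 10 kb and 8 within 100 kb. The lost region became 2 with equal numbers of peaks or a peak over 50% of the region, and 0 within 10 kb. The causes were not tested, except that a smaller or larger window holds fewer or more regions.

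With a library left out, 0 to 2 regions were higher and 0 to 2 lower by rank (0 higher without vector replicate 3 or MyoD-deleted replicate 1 or 2, and 0 lower without vector replicate 2 or MyoD-deleted replicate 2). By height, 2 to 5 were higher, the 2 without MyoD-deleted replicate 2, and 4 to 6 lower. Gained regions numbered 3 to 8 (8 without vector replicate 1 or MyoD-deleted replicate 1, 5 without MyoD-deleted replicate 3) and lost regions 1 to 3 (3 without vector replicate 2, 2 without MyoD-deleted replicate 2).

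No called region changed sign. Promoters close to 0 did. Left-out libraries gave ranges of −0.019 to 0.26 for CDKN1A, −0.055 to 0.078 for the outer 5′ end of CDKN2A, −0.14 to 0.033, −0.18 to 0.033 and −0.047 to 0.19 for the upstream, 5′ and intron 2 regions of CCND1, −0.028 to 0.19 for the outer CCND3 promoter, −0.031 to 0.028 for E2F1 and −0.037 to 0.024 for MYC. Without centring, the first 2 of CCND1 were at 0.13 and 0.15 and MYC at 0.19, and MYC was at 0.024 with a −log10 q of at least 5 and at 0.0083 with equal numbers of peaks.

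Libraries that share a replicate number did not vary together (correlations of deviations from the group mean across regions, −0.10 to 0.04 by rank and −0.20 to 0.09 by height), so the numbers do not pair them. With the number as a replicate block, 1 region was higher by rank, since the CCND3 region at 42012664 was no longer called (adjusted p = 0.0714 from limma), 2 were lower, and 5 were higher and 6 lower by height.

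The lists give no read counts, a region without a listed peak is not shown to hold 0 reads, and 3 libraries a group leave small changes undetected. Each gene window also holds regions of neighboring genes, which distance alone cannot assign.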

Other observations

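Around 37 other genes of the same pathway, 418 regions were counted, some once for each of several genes, and 251 were called in all 6 libraries. By height, 21 (beside a background of 11.4%) were higher and 32 (12.8%) lower, and by rank 15 (4.12%) and 11 (4.67%), with 11 gained (4.56%) and 6 lost (1.78%), the percentages being those over all regions. At the CDK inhibitors CDKN1B, CDKN2C, CDKN2D and CDKN3, 6 of 27 tested regions were higher by height and 0 lower. At the cyclins and kinases, 5 of 66 were higher and 10 lower, at the pocket proteins and E2F factors 4 of 66 and 5, and at the MYC network 4 of 49 and 8. These are counts without a test over the lists.

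Of 54 tested promoter regions of these genes, 1 was higher and 3 lower by height. The shares over all tested regions, distal ones included, were 11.4% and 12.8%, and those over all promoters were not computed. The called promoter regions are named after their values were seen. At GAS1, named for its expression in growth arrest, the promoter went from 2.27 ± 0.01 to 1.79 ± 0.05 (SD, n = 3) in log2 height, a difference of −0.49 (limma adjusted p = 0.000969). At MYCN, the MYC paralog known from neuroblastoma, the region at 15943269 to 15944369 on chromosome 2 went from 1.04 ± 0.05 to 0.39 ± 0.39 (SD, n = 3, limma adjusted p = 0.00644) and the region at 15939688 to 15941050 from 2.13 ± 0.29 to 1.76 ± 0.13 (SD, n = 3, limma adjusted p = 0.0465). None of these 3 lower promoter regions was called by rank (limma adjusted p of 0.235 at GAS1, and 0.256 and 0.859 at MYCN in the order given). In all, 5 of 6 tested regions of MYCN were lower by height, beside 12.8% of all tested regions, whereas the MYC promoter differed by 0.00. A 5′ end of TFDP2, which encodes a dimerization partner of E2F factors, rose from −1.26 ± 0.17 to −0.58 ± 0.03 (SD, n = 3, limma adjusted p = 0.0145) and by 37.0 percentile points in rank (adjusted p = 0.0101). Its tested 5′ ends at 142027414 to 142028749 and at 142148716 to 142149982 were called by neither measure. Their height differences were −0.19 (limma adjusted p = 0.537) and 0.09 (limma adjusted p = 0.640). By rank alone, the SKP2 promoter was higher by 26.9 points (adjusted p = 0.0203), and a CDKN1B promoter region was lower, from 83.9 to 63.7 percentiles (adjusted p = 0.0372). The other tested CDKN1B promoter region, at 12716810 to 12718275, was called by neither measure. It stood at 56.8 and 57.5 percentiles (limma adjusted p = 0.954), with a height difference of 0.10 (limma adjusted p = 0.594).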
